A study of Mus musculus with 6 samples.

Results

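The genes of the kinase mTOR and of its closest partners were followed in cultured mouse cells that the labels call female germline stem cells, which are mitotic germ cells taken from the ovary. The 10 genes, out of 54231 with usable values, were those whose symbols in the deposited table equal Mtor, Rptor, Rictor, Mlst8, Akt1s1, Tsc1, Tsc2, Rheb, Rps6kb1 or Rps6kb2, and all 10 were measured and passed the low-value filter. The cultures received either the solvent DMSO, as controls, or C89, for which the labels give a code name and nothing else, and RNA was collected at 8 h. Each group had 3 RNA sequencing libraries. The labels give no dose, mouse strain, age or passage, and do not say whether replicates came from separate cultures; the p-values therefore speak of the spread among these libraries alone, which may be technical.

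mTOR works in a pair of complexes. In mTOR complex 1 it is joined by Raptor (Rptor) and the inhibitor PRAS40 (Akt1s1), in mTOR complex 2 by Rictor, and in both by the small subunit mLST8. The GTPase Rheb switches complex 1 on at the lysosome, and the tuberous sclerosis complex of Tsc1 and Tsc2 switches Rheb off; AKT relieves both brakes, TSC and PRAS40. Active complex 1 phosphorylates the S6 kinases, which promote translation and growth, and it restrains autophagy. In the mouse ovary, loss of Tsc1 or Tsc2 from oocytes is known to wake resting follicles too early. Transcript levels do not measure the activity of any of these proteins.

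Libraries held 17826569 to 21763459 reads on genes in DMSO and 7772060 to 17938295 in C89, so C89 library 2 is the least precise. The second and C89 library 3 were nearly alike: 0.686% of genes differed between them beyond sampling noise, against 25.7 to 48.4% for the other pairs within a group, although their counts still varied somewhat more than sampling alone gives (chi-square over degrees of freedom 1.63). They were kept as 2 libraries, and results with both summed to 1 are given with the calls of the 10 genes and of the other pathway genes. All 6 germ cell markers looked up (Ddx4, Dazl, Dppa3, Pou5f1, Nanos3 and Mael) had means under 5 normalized read counts, 3 of them without a read, so the labelled cell type was not borne out by its defining markers. The 7 mast cell markers summed to 49402 to 59244 normalized counts in DMSO and 83955 to 95163 in C89 libraries. Yet 3 of them (Fcer1a, Ms4a2 and Tpsb2) had means under 5, and Kit and Gata2 made up most of each sum. The 6 fibroblast markers summed to 78.8 to 1120.3 in DMSO, lowest in the third library, and to 38.1 to 112 in C89, and 1 of them, Lum, had no read. The 5 macrophage markers summed to 1799 to 2658 in DMSO and 3719 to 3985 in C89, with Csf1r, Mrc1 and C1qa under 5. Adgre1 was at 850 to 1052 in DMSO and 2014 to 2252 in C89, whereas Cd68 overlapped (947 to 1591 and 1456 to 1947). The 6 granulosa cell markers summed to 7.96 to 9.34 in DMSO and 14.2 to 47.1 in C89, with 5 of the 6 under 5. In C89 library 3, Inha alone held 24.2 of the 47.1. The part of these shifts in the results below was not tested, and in bulk RNA fewer cells of a type and less RNA per cell cannot be told apart.

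After C89, transcripts of Tsc1, Tsc2, the mTOR inhibitor PRAS40 and the S6 kinase S6K2 were lower, and those of Rheb were higher. The calls of Rheb, Tsc1 and Rps6kb2 held in all 16 alternative settings. That of Tsc2 was lost in 5 of them and that of Akt1s1 in 6. mTOR, Raptor, Rictor and mLST8 transcripts did not pass the test. Of the 10 genes 1 rose and 4 fell at a limma adjusted p under 0.05, against 12.5% of all 18954 genes tested that rose and 13.6% that fell (26.1% in either direction). The groups did not overlap in 7 of the 10 genes, against 40.9% of all genes. The median log2 fold change, C89 over DMSO, was -0.17 for the 10 and -0.03 for all genes tested. Changes were moderate, between 1.26-fold and 1.74-fold for the 5 called genes.

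The counts of called genes depended on single libraries, as did those over all genes. Of the 10, 2 rose and 3 fell with DMSO library 1 left out, against 12.4 and 12.5% of all genes. With DMSO library 2 left out 1 rose and 3 fell (6.07 and 6.08% of all genes), and with DMSO library 3 left out 1 and 2 (8.77 and 10.4%). On leaving out C89 library 1, 1 rose and 3 fell (9.98 and 11.4%), on leaving out C89 library 2, 1 and 2 (7.2 and 8.16%), and on leaving out C89 library 3, 1 and 3 (6.27 and 7.51%). Summing C89 libraries 2 and 3 gave 1 and 2 (8.17 and 9.1%), and a block for the replicate number 1 and 3 (10.3 and 11.3%). Scaling by total reads gave 1 and 4 (7.99 and 21.6%); it shifts the median log2 fold change of all genes averaging 50 counts or more from -0.02 to -0.17, and every direction below is relative to the deposited scaling.

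**Figure D1:**
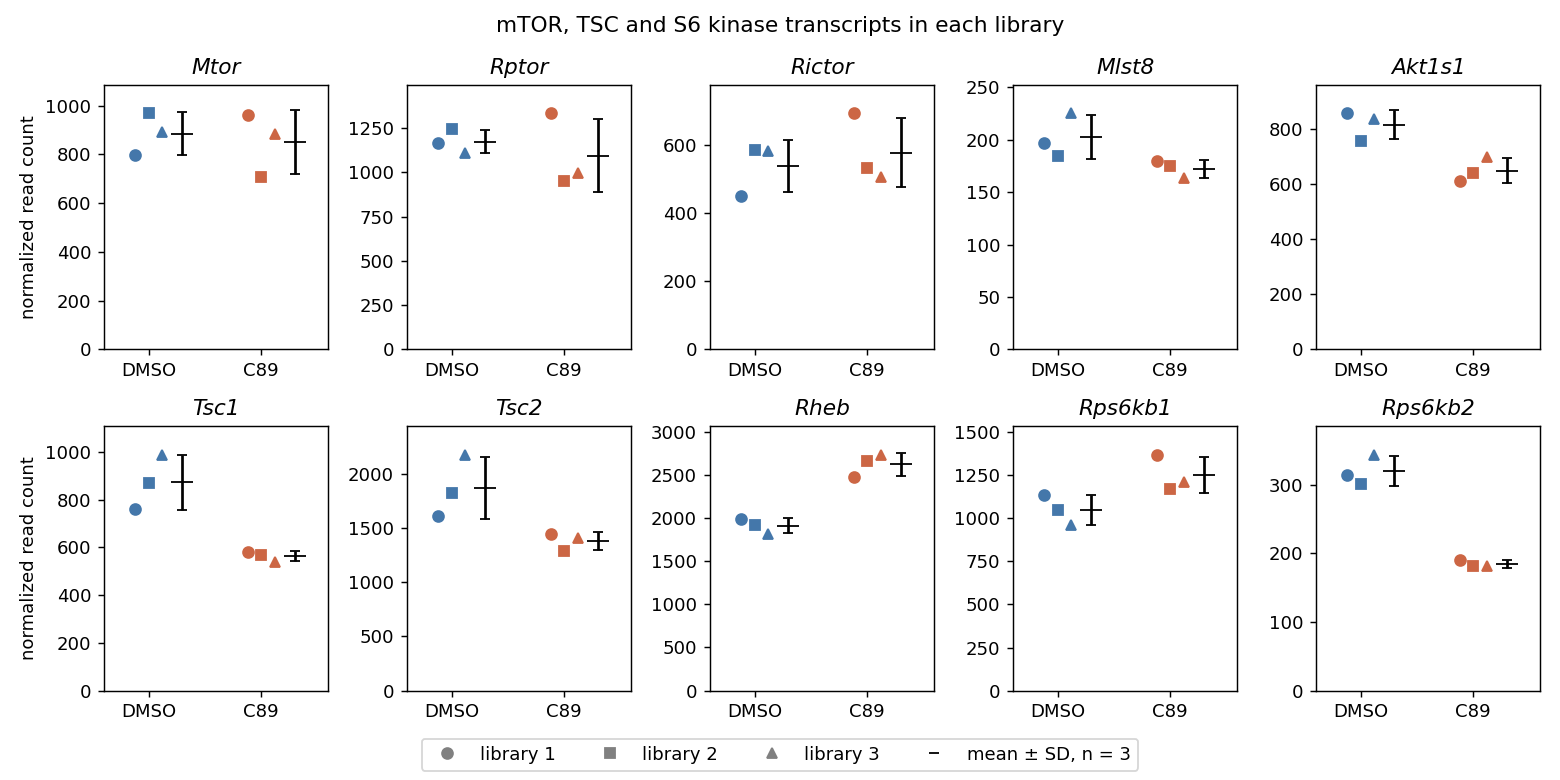
Normalized read counts (y axes, each from 0) of the 10 genes in the 3 DMSO and 3 C89 libraries; symbols mark the library and black bars the mean ± SD (n = 3). Rheb lies higher and Tsc1, Tsc2, Akt1s1 and Rps6kb2 lie lower in every C89 library than in any DMSO library, while Mtor, Rptor and Rictor overlap.

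Of the 10 genes, 9 had an entry in RefSeq's promoter table (GRCm38.p6); the missing one was Rps6kb2. The 250 bases before the annotated start are shown, 5′ to 3′, for the 4 called genes that had one, because 3 of these moved down and 1 up. Capitals mark every match, on either strand, to 4 motifs: the E-box CACGTG, the FOXO motif GTAAACA, the ETS core CCGGAA and the NRF1 core GCGCATGC. The windows are chr5:24842362-24842611, minus strand, for Rheb; chr2:28640983-28641232, plus strand, for Tsc1; chr17:24632628-24632877, minus strand, for Tsc2; and chr7:44850122-44850371, plus strand, for Akt1s1.
Rheb: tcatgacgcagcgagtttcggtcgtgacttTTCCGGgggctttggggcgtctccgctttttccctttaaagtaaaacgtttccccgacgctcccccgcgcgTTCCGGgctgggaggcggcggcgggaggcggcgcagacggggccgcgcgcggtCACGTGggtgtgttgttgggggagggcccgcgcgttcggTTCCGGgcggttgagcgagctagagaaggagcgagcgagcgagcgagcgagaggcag
Tsc1: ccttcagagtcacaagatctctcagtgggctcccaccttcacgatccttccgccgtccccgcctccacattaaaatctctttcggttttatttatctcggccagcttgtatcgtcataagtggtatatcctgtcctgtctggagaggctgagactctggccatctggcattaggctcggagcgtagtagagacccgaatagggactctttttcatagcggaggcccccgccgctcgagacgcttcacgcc
Tsc2: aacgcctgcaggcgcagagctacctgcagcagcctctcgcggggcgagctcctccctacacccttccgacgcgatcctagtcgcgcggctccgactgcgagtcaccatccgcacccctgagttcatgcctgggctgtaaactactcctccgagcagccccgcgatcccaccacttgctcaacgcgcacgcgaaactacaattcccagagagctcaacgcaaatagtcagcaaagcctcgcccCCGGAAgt
Akt1s1: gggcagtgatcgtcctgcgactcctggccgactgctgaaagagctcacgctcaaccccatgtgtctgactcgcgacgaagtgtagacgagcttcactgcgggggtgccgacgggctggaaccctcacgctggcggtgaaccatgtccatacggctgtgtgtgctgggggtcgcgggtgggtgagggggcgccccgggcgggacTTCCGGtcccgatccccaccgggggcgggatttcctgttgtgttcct

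The Rheb window held 1 E-box, with 90 bases between it and the start, and 3 ETS cores. The Tsc2 and Akt1s1 windows held 1 ETS core each, with 2 and 41 bases between it and the start, and the Tsc1 window held none of the 4 motifs. Over the 9 windows, an E-box was present in 1, an ETS core in 5 and the NRF1 core in 1, Rps6kb1, which had 2; the FOXO motif was in 0, and 0 pairs of sites overlapped. Of 32851 promoter windows of the same length, 6.02% held the E-box, 12.03% the ETS core, 2.26% the NRF1 core and 3.17% the FOXO motif. These matches describe the letters only.

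Rheb, the GTPase that activates mTOR complex 1 (ENSMUSG00000028945, chromosome 5), was at 1991, 1916 and 1818 normalized counts in the DMSO libraries and at 2476, 2658 and 2734 in the C89 libraries. All C89 values lay above all DMSO values. The means were 1909 ± 86.7 and 2623 ± 133 (SD, n = 3 each), 1.37-fold higher in C89, with a log2 fold change of 0.46 (SE 0.08, limma adjusted p = 0.00187). The call was kept without any 1 library (adjusted p from 0.00324 to 0.0298) and with the near-identical C89 libraries summed (0.0179). Rhebl1, a close relative of Rheb, was at 267 ± 27.1 and 239 ± 42.8 (adjusted p = 0.434).

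Tsc1, which encodes hamartin, the subunit that stabilises the complex (ENSMUSG00000026812, chromosome 2), was at 760.2, 868 and 989 normalized counts in DMSO and at 580.2, 567 and 540.2 in C89 libraries. The groups did not overlap, and the C89 libraries lay close together. It was 1.55-fold lower, at 872 ± 114 and 562 ± 20.4 (log2 fold change -0.62, SE 0.11, limma adjusted p = 0.00142). The call was kept without any 1 library (0.0014 to 0.0386) and with the 2 C89 libraries summed (0.0126).

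Tsc2, which encodes tuberin, the subunit that acts on Rheb (ENSMUSG00000002496, chromosome 17), was at 1610.4, 1821 and 2175 in DMSO and at 1444, 1282 and 1408 in C89 libraries. DMSO library 3 was the highest for Tsc2 as for Tsc1, and the lowest DMSO value was above the highest C89 value. Tsc2 was 1.36-fold lower (log2 fold change -0.43, SE 0.11, limma adjusted p = 0.0122), which did not hold when DMSO library 2 (adjusted p = 0.0983), DMSO library 3 (0.0508), C89 library 2 (0.0873) or C89 library 3 (0.0677) was left out, nor with the 2 C89 libraries summed (0.0622). Tbc1d7, the gene of the third TSC subunit, fell by 0.41 on the log2 scale, from 263 ± 18.5 to 198 ± 10.6 (adjusted p = 0.0304). This call was lost in DESeq2, without any 1 library but DMSO library 1 (limma adjusted p up to 0.0848), with the 2 C89 libraries summed (0.0678) and with a replicate block (0.059). Tsc2 shares 693 exon bases with Pkd1 on the opposite strand in GENCODE M21; Pkd1 was at 860.3 ± 123 and 745 ± 98.3 (adjusted p = 0.261).

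Akt1s1, the gene of PRAS40 (ENSMUSG00000011096, chromosome 7), was at 856, 755 and 835 in DMSO and at 609, 638 and 697 in C89 libraries. The groups did not overlap, but DMSO library 2 and C89 library 3 lay near each other. The fall was 1.26-fold (log2 fold change -0.33, SE 0.10, limma adjusted p = 0.0259). It was lost without DMSO library 1 or 3 (0.0651 and 0.0702), without C89 library 1 or 2 (0.0753 and 0.0948), with the 2 C89 libraries summed (0.0659) and with a replicate block (0.0558). Tbc1d17, which shares 89 exon bases with Akt1s1 on the opposite strand, fell by 0.59 on the log2 scale, from 415 ± 44.3 to 279 ± 57.1 (adjusted p = 0.0138).

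Of the S6 kinase genes, 1 of the pair passed the test. Rps6kb2, the gene of S6K2 (ENSMUSG00000024830, chromosome 19), was at 315, 300.4 and 344 in DMSO and at 190.4, 181 and 181 in C89 libraries. It had the lowest p and the largest fold of the 10 genes: 319.7 ± 22.2 fell to 184 ± 5.51, 1.74-fold lower (log2 fold change -0.79, SE 0.12, limma adjusted p = 6.72e-04). The call was kept without any 1 library (0.00262 to 0.0199) and with the 2 C89 libraries summed (0.00608). The annotated exons of Rps6kb2, over all its transcripts, share 1224 bases with Ptprcap and 45 with Coro1b, both on the opposite strand. Ptprcap was at 1685 ± 202 and 1832 ± 132 (adjusted p = 0.405) and Coro1b at 1934 ± 124 and 1721 ± 86.2 (adjusted p = 0.18). The labels name a directional library kit beside another kit, and the strand setting of the counting is not known, so reads of such overlaps cannot be assigned with certainty.

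Rps6kb1, the gene of S6K1 (ENSMUSG00000020516, chromosome 11), was at 1133, 1049 and 958 in DMSO and at 1368, 1171 and 1209 in C89 libraries. Every C89 value was above every DMSO value. Yet the log2 fold change of 0.26 (95% interval 0.04 to 0.47) missed the threshold (limma adjusted p = 0.0758). It was 0.31 with an adjusted p of 0.0454 without DMSO library 1. Without any other library the limma adjusted p was 0.11 to 0.209. With scaling by total reads the log2 fold change was 0.11 (adjusted p = 0.446). Rps6kb1 shares 155 exon bases with Rnft1 on the opposite strand, which fell from 475 ± 64.7 to 367 ± 19.9 (adjusted p = 0.0424).

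Ratios of 2 genes within a library do not depend on how libraries were scaled. Log2 ratios were taken of counts + 1 and ratios per 100 of the counts themselves, without correction for transcript length, so only their difference between libraries is read. Per 100 counts of Rps6kb1, the DMSO libraries held 27.8, 28.6 and 35.9 counts of Rps6kb2 and the C89 libraries 13.9, 15.5 and 15.0. The groups lay far apart, with a log2 ratio of -1.71 ± 0.20 in DMSO and -2.75 ± 0.08 in C89 (SD, n = 3 each; difference -1.05, two-sided exact permutation p = 0.1, the smallest that 3 against 3 allows). Per 100 counts of Tsc1, there were 212, 209.9 and 219.97 counts of Tsc2 in DMSO and 249, 226 and 261 in C89 libraries, each C89 value above each DMSO value (log2 difference 0.19, exact permutation p = 0.1). Rptor to Rictor, the partners that tell the mTOR complexes apart, overlapped between groups, with 259, 213 and 191 counts of Rptor per 100 of Rictor in DMSO and 193, 179 and 198 in C89 (log2 difference -0.21, exact permutation p = 0.3). This difference was -0.091 without DMSO library 1 and -0.308 without DMSO library 3. Adjusted over the 3 pairs, the permutation p-values were 0.15, 0.15 and 0.3.

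**Figure D2:**
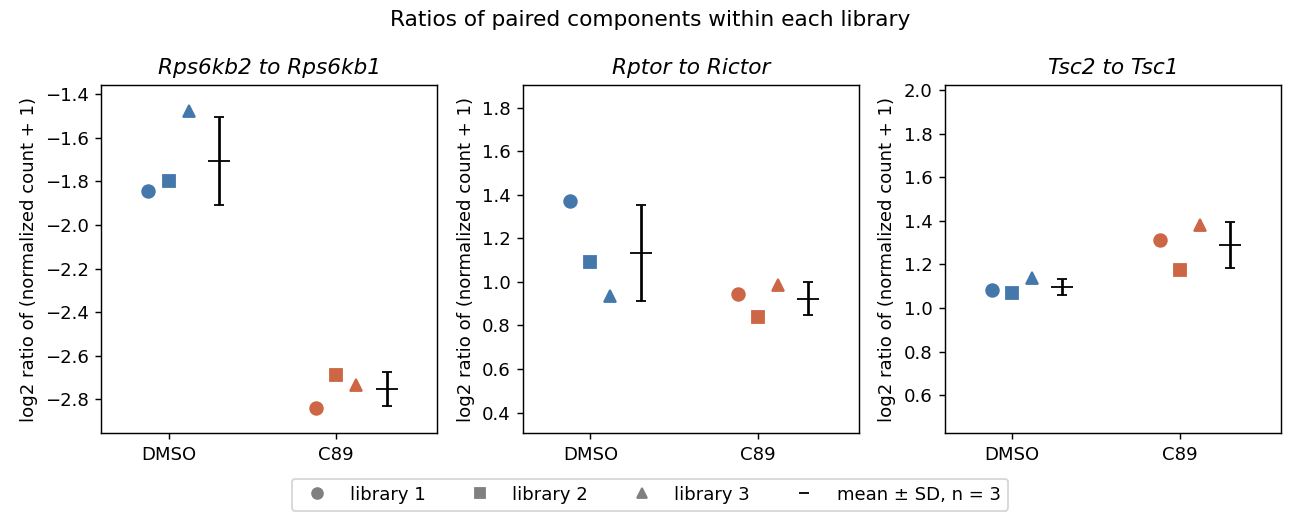
Log2 ratios of normalized counts + 1 (y axes, each spanning the same number of log2 units) within each DMSO and C89 library; symbols mark the library and black bars the mean ± SD (n = 3). The mean of Rps6kb2 to Rps6kb1 is -1.71 in DMSO and -2.75 in C89 with no overlap, that of Tsc2 to Tsc1 is 0.19 higher in C89 with no overlap, and Rptor to Rictor overlaps.

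The core of the complexes gave no call. Mtor, the kinase itself (ENSMUSG00000028991, chromosome 4), was at 796, 969 and 892 in DMSO and at 961, 707 and 884 in C89 libraries, so the lowest and nearly the highest value both came from C89. Its log2 fold change was -0.07, with a 95% interval of -0.33 to 0.20 (limma adjusted p = 0.739). Rptor, the scaffold that brings substrates to complex 1, was at 1166, 1245 and 1111 in DMSO and at 1334, 953 and 999 in C89 libraries (log2 fold change -0.11, interval -0.38 to 0.15, adjusted p = 0.531).

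Rictor, the scaffold of complex 2, was at 450.1, 583 and 580.3 in DMSO and at 692, 532 and 505 in C89 libraries, with a log2 fold change of 0.10 (interval -0.21 to 0.40, limma adjusted p = 0.665). C89 library 1 held the highest values of Rptor and of Rictor among all 6 libraries. Mlst8, whose product binds the kinase domain in both complexes, was at 197, 184 and 225 in DMSO and at 179.8, 175 and 163 in C89 libraries. Its groups did not overlap, but the fold change of -0.22 (interval -0.52 to 0.07, adjusted p = 0.26) missed the threshold. Mlst8 shares 997 exon bases with Bricd5 on the opposite strand, which had no read.

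Per kilobase of the longest principal transcript in GENCODE M21, Rheb had the highest level of the 10 genes, at 1069.8 ± 48.6 normalized counts per kilobase in DMSO libraries. Akt1s1 followed at 464 ± 30.5 and Tsc2 at 311 ± 47.4. Next came Rps6kb1 at 189 ± 15.9 and Rptor at 178 ± 10.2, whose ranges overlapped, then Tsc1 at 114 ± 14.9 and Mtor at 103 ± 10.1, which overlapped too. Rps6kb2 at 69.7 ± 4.83 and Rictor at 57.8 ± 8.17 were the lowest of those that could be placed. The place of Rps6kb2 in both groups rests on an annotated length of 4586 bases. Exons of Rps6kb2 share 1224 bases with Ptprcap on the opposite strand. If the transcript in these cells is shorter, its level per kilobase is higher than given. Mlst8 was not placed, because its principal transcripts run from 1574 to 3855 bases. In C89 libraries Rheb stood at 1470.1 ± 74.5, Tsc2 at 229 ± 14.1 and Rps6kb1 at 226 ± 19.0, so the latter 2 overlapped there, and Rps6kb2 at 40.1 ± 1.20 lay below Rictor at 61.9 ± 10.8.

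The authors' deposited table gave the same 5 genes an adjusted p under 0.05, with log2 fold changes of 0.45 for Rheb, -0.61 for Tsc1, -0.74 for Rps6kb2, -0.42 for Tsc2 and -0.32 for Akt1s1. In the authors' deposited table Rps6kb1 had an adjusted p of 0.0747 and Mtor one of 0.835.

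**Figure D3:**
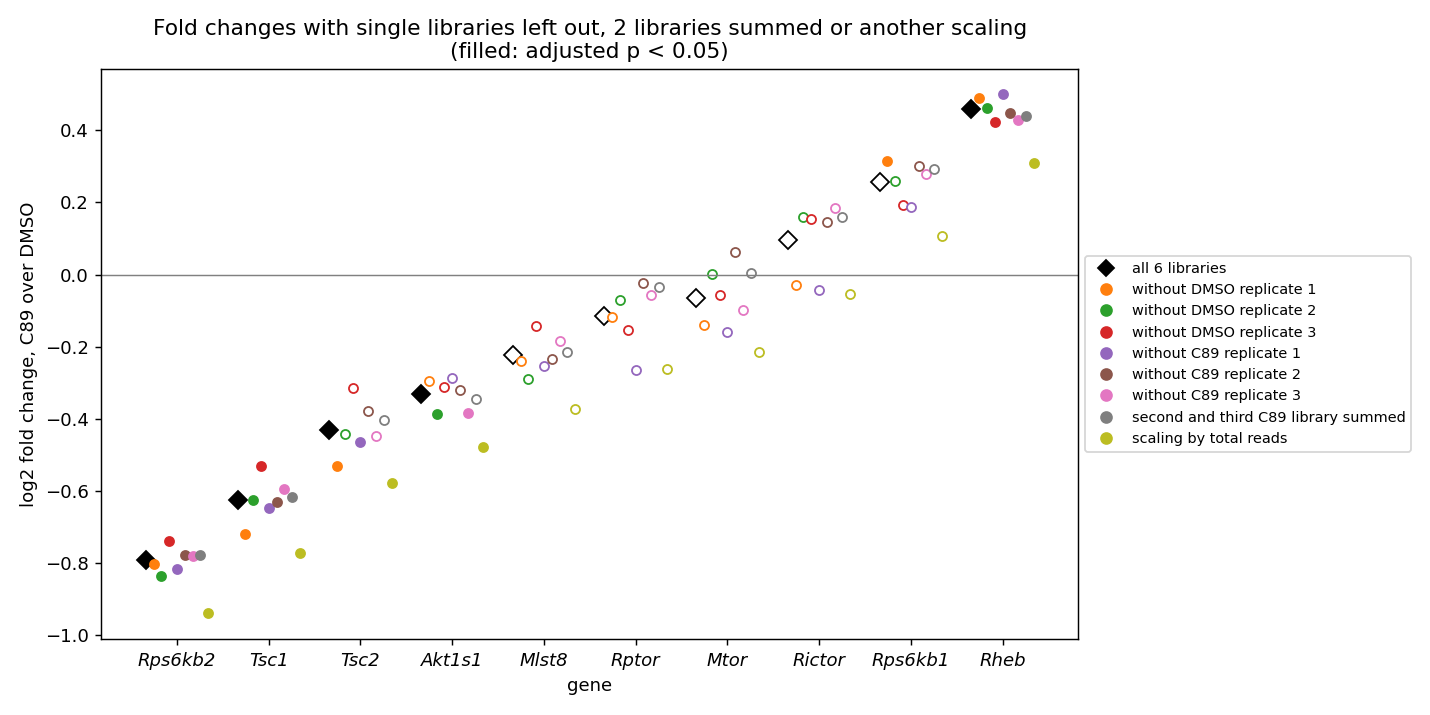
Log2 fold change (y axis) of each of the 10 genes (x axis) with all 6 libraries (black diamonds), with 1 library left out, with the 2 near-identical C89 libraries summed and with scaling by total reads (circles); filled symbols have an adjusted p under 0.05. Rheb, Tsc1 and Rps6kb2 stay filled in all, and Mtor and Rictor lie on both sides of 0.

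Around these 10 genes, 73 other genes of the pathway in 5 lists were looked up, of which 69 were tested; Prr5l, Ddit4l, Rps6ka6 and Sgk2 had 0 to 5 reads over all libraries. Of the 69, 6 rose and 16 fell, with a median log2 fold change of -0.09. This is 31.9% called against the 26.1% of all genes, a share that was not matched for expression level here or elsewhere. The rises and falls became 1 and 7 on leaving out DMSO library 2 (6.07 and 6.08% of all genes). They became 3 and 10 on leaving out C89 library 2 (7.2 and 8.16%). Leaving out C89 library 3 gave 3 and 8 (6.27 and 7.51%). Summing C89 libraries 2 and 3 gave 3 and 10 (8.17 and 9.1%). Under total-read scaling 3 were higher and 24 lower, against 7.99 and 21.6% of all genes.

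Among 11 tested subunits and assembly factors, 2 rose and 3 fell, 45.5% called against 26.1% of all genes. Deptor, an inhibitor in both mTOR complexes, was at 299 ± 43.7 in DMSO and fell to 212 ± 14.8 in C89 (limma adjusted p = 0.0222). Tti1, which helps fold mTOR and related kinases, fell from 602 ± 86.2 to 406 ± 14.8 (adjusted p = 0.00421), and Tbc1d7 was the other fall. The helicase genes Ruvbl1 and Ruvbl2, whose products assemble such kinases into complexes, rose with log2 fold changes of 0.43 and 0.24 (adjusted p = 0.00564 and 0.042). Their partners Telo2 and Tti2 had adjusted p of 0.56 and 0.347, and Mapkap1, a subunit of complex 2, one of 0.772. Deptor was lost on leaving out DMSO library 2 (adjusted p = 0.131), DMSO library 3, C89 library 2 or C89 library 3; Tti1 (0.0565) and Ruvbl1 (0.0682) were lost only without DMSO library 2 among the left-out libraries. Ruvbl2 was kept only without DMSO library 1, and 0 of the 11 were called without DMSO library 2. In that last setting 6.07% of all genes rose and 6.08% fell. With the 2 C89 libraries summed 1 rose and 1 fell, against 8.17 and 9.1% of all genes. Tti1 (0.0226) and Ruvbl1 (0.035) kept their calls there, and Tbc1d7, Deptor (0.0792) and Ruvbl2 (0.125) lost theirs. Ruvbl2 was also lost with scaling by total reads (0.429).

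Genes of amino acid sensing gave 0 rises and 6 falls among 17 tested, 35.3% called against 26.1% of all genes (13.6% for falls). GATOR2, which lifts the brake that GATOR1 places on complex 1, was represented in this group by Wdr24, from 790.1 ± 59.3 to 507 ± 36.2 (log2 fold change -0.64, SE 0.10, limma adjusted p = 8.61e-04), Seh1l, from 1389 ± 50.7 to 957 ± 70.0 (adjusted p = 0.00113), and Mios, with a log2 fold change of -0.47. Seh1l is also a subunit of the nuclear pore. The other GATOR2 genes Wdr59 and Sec13 had log2 fold changes of 0.05 and 0.13 (adjusted p = 0.731 and 0.239). Kptn and Itfg2, subunits of KICSTOR, which tethers GATOR1 to the lysosome, fell from 199.9 ± 19.6 to 119 ± 21.7 and from 375 ± 33.1 to 255 ± 19.97 (log2 fold changes -0.75 and -0.56). Bmt2, whose product SAMTOR senses S-adenosylmethionine, fell with -0.41. The GATOR1 genes Depdc5, Nprl2 and Nprl3 had adjusted p of 0.0938, 0.251 and 0.663. Wdr24, Seh1l, Kptn and Itfg2 kept their calls without any 1 library (highest adjusted p = 0.0498, for Kptn) and with the 2 C89 libraries summed, whereas Mios was lost without DMSO library 2 or C89 library 3 (adjusted p up to 0.0815) and Bmt2 without any 1 but DMSO library 1 (up to 0.134). The falls numbered 4 without DMSO library 2 or C89 library 3, against 6.08 and 7.51% of all genes. With the 2 C89 libraries summed they numbered 5, against 9.1% of all genes. Mios was 1 of the 5 (0.0309), and Bmt2 was lost (0.0683).

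Of 16 tested genes that feed into TSC and mTOR, 0 rose and 4 fell. This is 25% called, close to the 26.1% of all genes in either direction. For falls alone the share of all genes was 13.6%. Prkag2, a regulatory subunit of the energy sensor AMPK, fell from 424 ± 62.1 to 232 ± 29.4 (log2 fold change -0.86, SE 0.14, limma adjusted p = 9.33e-04). The call was kept without any 1 library (up to 0.0238) and with the 2 C89 libraries summed (0.0067). Irs2, an adaptor of the insulin receptor, fell from 27.3 ± 10.4 to 8.89 ± 1.26 (adjusted p = 0.0144). It had only 130 reads over all libraries, so its fold is imprecise (log2 fold change -1.46, SE 0.38). The AMPK subunit gene Prkab1 and Pdpk1, the kinase PDK1 that activates AKT and S6 kinases, fell with log2 fold changes of -0.28 and -0.41 (adjusted p = 0.0417 and 0.0376), and the groups overlapped for Pdpk1. Irs2 was lost without DMSO library 2 or C89 library 3 (adjusted p up to 0.0941), Pdpk1 without the second or the third library of either group (up to 0.216) and Prkab1 without any 1 but DMSO library 1 (up to 0.129). The falls numbered 1 without DMSO library 2 or C89 library 3 (6.08 and 7.51% of all genes). They numbered 2 without DMSO library 3 or C89 library 2 or with the 2 C89 libraries summed (10.4, 8.16 and 9.1%). In the summed setting Irs2 kept its call (0.0337), and Pdpk1 (0.16) and Prkab1 (0.106) lost theirs. With scaling by total reads the falls numbered 8, 50% of the 16, against 21.6% of all genes. The stress-induced mTOR inhibitor gene Ddit4 had a log2 fold change of -0.24 (adjusted p = 0.117), and Prkaa1, a catalytic AMPK subunit, one of -0.01.

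Among 17 substrates and effectors of mTOR and the S6 kinases, 3 rose and 2 fell, 29.4% called and thus close to the 26.1% of all genes. Pdcd4, an inhibitor of translation that S6 kinases mark for destruction, fell from 396.5 ± 30.6 to 255 ± 32.5 (log2 fold change -0.64, SE 0.13, limma adjusted p = 0.00329), kept without any 1 library (up to 0.0445) and with the 2 C89 libraries summed (0.0124). Eif4e, the cap-binding protein, rose from 2683 ± 302 to 3663 ± 103 (adjusted p = 0.00356), and its binding inhibitor gene Eif4ebp2 rose by 0.26 on the log2 scale (adjusted p = 0.0272). The helicase gene Eif4a1 rose with 0.43 (adjusted p = 0.0155) and the phosphatidate phosphatase gene Lpin1 fell with -0.39 (adjusted p = 0.0406). Eif4e was lost without DMSO library 2 (0.0537); Eif4a1 (up to 0.143), Eif4ebp2 (up to 0.0883) and Lpin1 (up to 0.174) were lost without 4, 4 and 5 of the libraries, the second DMSO and both near-identical C89 libraries among them. The rises numbered 0 without DMSO library 2, where 6.07% of all genes rose. They numbered 1 without C89 library 2 or 3 or with these summed (7.2, 6.27 and 8.17% of all genes). In the summed setting Eif4e kept its call (0.0227), and Eif4a1 (0.0737), Eif4ebp2 (0.0824) and Lpin1 (0.0839) lost theirs. Under total-read scaling 1 was higher and 4 were lower, against 7.99 and 21.6% of all genes. Eif4a1 and Eif4ebp2 then had limma adjusted p of 0.0736 and 0.313. Rps6, the substrate after which the S6 kinases are named, had a log2 fold change of 0.23 (adjusted p = 0.0977) and Eif4ebp1 one of 0.10 (0.432).

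Of 8 tested kinases related to the S6 kinases, 1 rose and 1 fell, 25% called and thus close to the 26.1% of all genes. Rps6ka4, the gene of the nuclear kinase MSK2, fell from 884 ± 36.6 to 585 ± 11.4 (log2 fold change -0.59, SE 0.09, limma adjusted p = 6.46e-04), and Rps6kl1, a little-studied S6 kinase-like gene, rose from 26.5 ± 10.02 to 82.4 ± 13.9 (1.65, SE 0.28, adjusted p = 0.00124). Both were kept without any 1 library (up to 0.0401) and with the 2 C89 libraries summed (0.00688 and 0.00988). Rps6ka1, the gene of RSK1, had a log2 fold change of 0.24 (adjusted p = 0.0549).

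**Figure D4:**
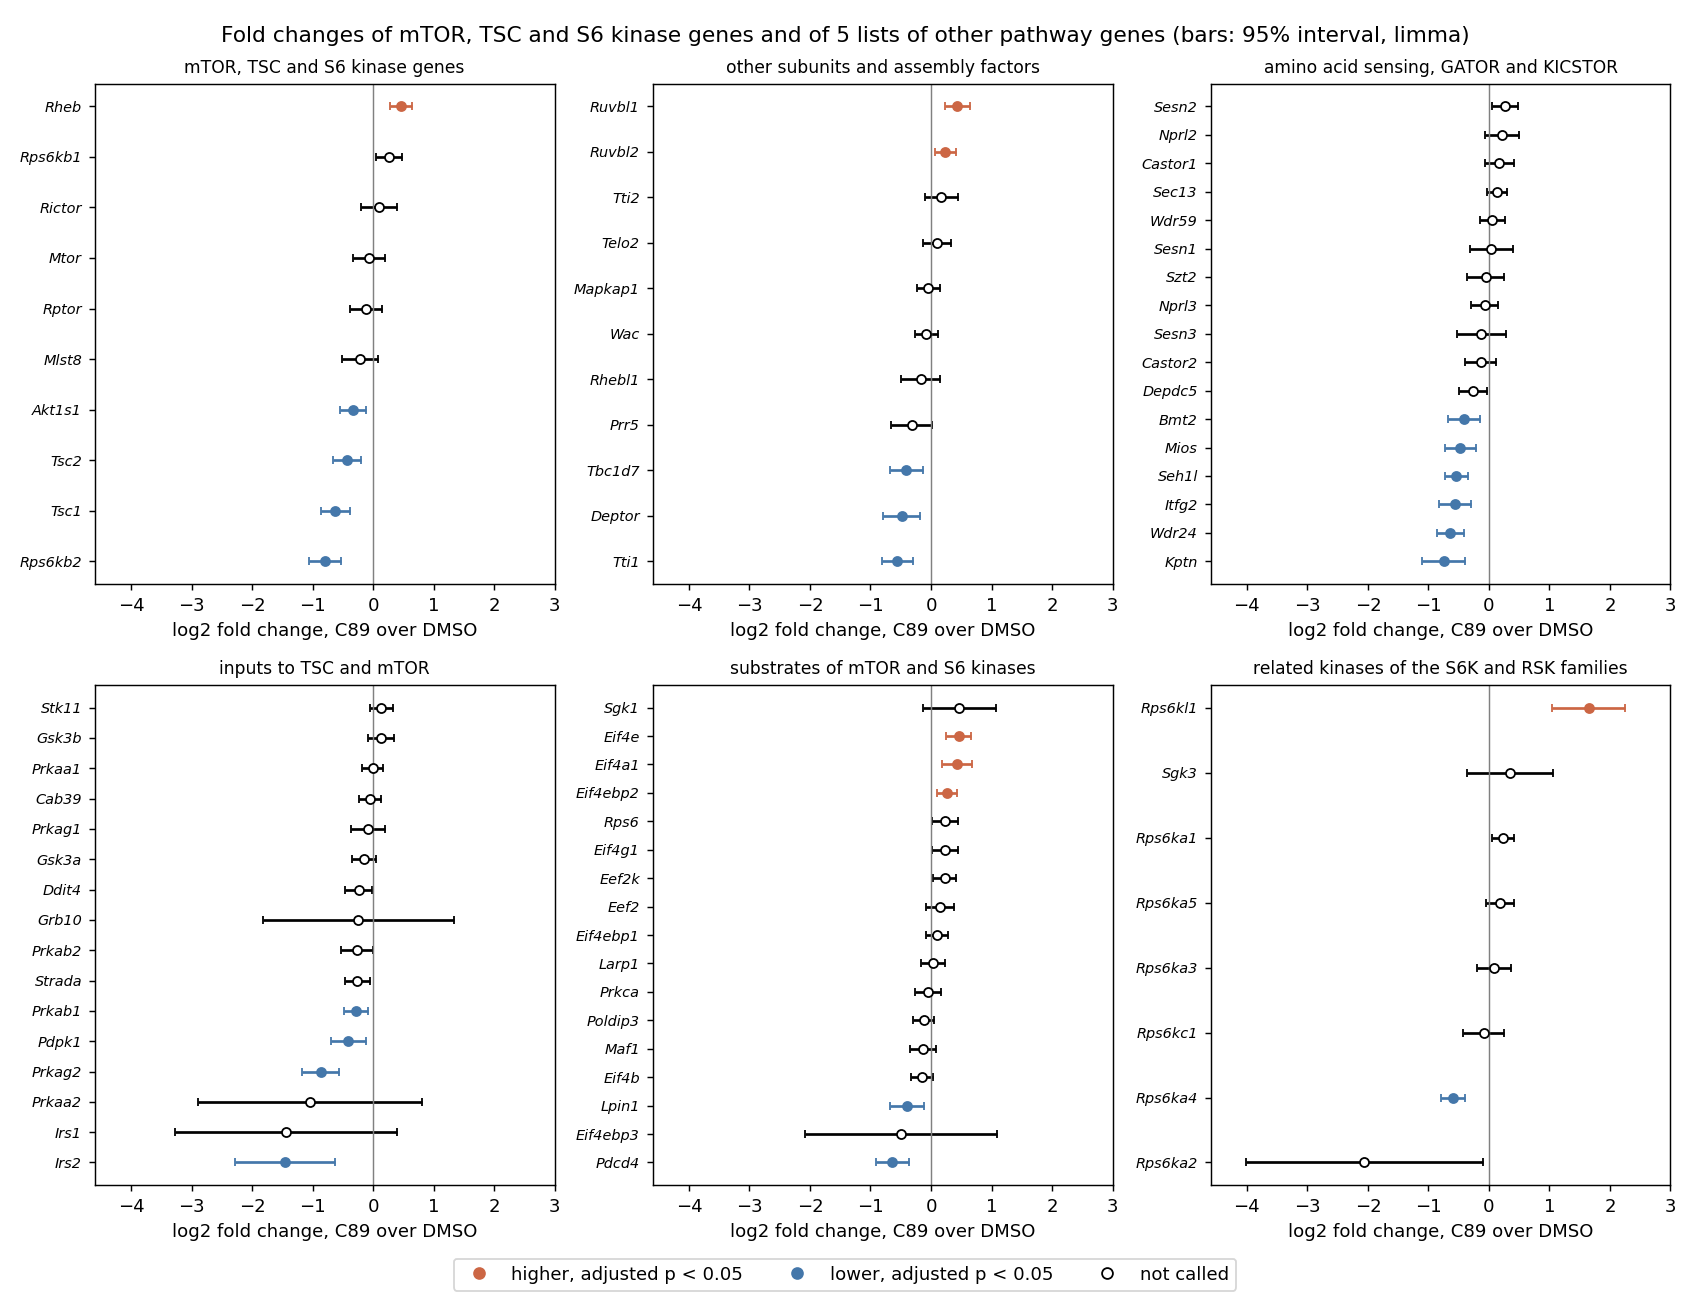
Log2 fold changes (x axes, C89 over DMSO) of the 10 genes and of the 69 tested genes in 5 lists of other pathway genes, with limma's 95% intervals as bars; filled circles passed the test and open circles did not. In the list of amino acid sensing genes 6 of 17 are lower and 0 higher, and in that of inputs to TSC and mTOR 4 of 16 are lower and 0 higher, against 13.6% lower and 12.5% higher among all genes.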

How the data were processed

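The authors deposited 1 table of 54232 genes whose 6 named library columns hold a normalized signal. Divided by 1 factor per library, each of the 119020 deposited values above 0 came out whole to within 0.01 read (100%), so reads could be recovered. HISAT2 and DESeq2 are named, without versions, in the submitters' processing notes. Not given in the sources used here were genome build, annotation, counting tool and strand setting. The table also holds the authors' log2 fold change and adjusted p-value per gene, headed as DESeq2 heads them, per the file headers. A further 6 unnamed columns hold a copy of values of Mtor and their group means, and were not used. One gene with text in a value was left out.

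Members were taken by the table's own symbols. The main test was limma 3.58.1 (R 4.3.3) with a mean-variance trend on log2(value + 1) of the 18954 genes averaging 1 or more, with a single term for group; p-values were adjusted over them by Benjamini-Hochberg, threshold 0.05. This scale understates changes of low genes. Alternatives were edgeR 4.0.16 and DESeq2 1.42.0 on recovered reads, other scalings, filters and pseudocounts, a replicate block, each library left out, and C89 libraries 2 and 3 summed. The procedure was tested on simulated data. Members, lists and tests were chosen with earlier results of these data known. From each list the 4 called genes with the lowest p were to be named; Ruvbl2, Mios, Bmt2, Lpin1 and the genes that overlap members, and every gene named although it was not called, were added after their values were seen. Promoters are RefSeq's. Ratios were tested with scipy 1.17.1 and figures drawn with matplotlib 3.10.9. Intervals of fold changes are limma's 95% intervals.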

Additional observations from a re-analysis of the deposited data

How the results depend on the processing

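Across 16 alternatives, Rheb, Tsc1 and Rps6kb2 kept their direction and their call, with log2 fold changes of 0.31 to 0.50, -0.77 to -0.53 and -0.94 to -0.74. Tsc2 lost its call in 5 and Akt1s1 in 6, and Rps6kb1 gained one in 1. Of the 10 genes, the number higher was 1 to 2 and the number lower 2 to 3 with 1 library left out, and 2 were lower with C89 libraries 2 and 3 summed. Of the other pathway genes, the number higher was 1 to 7 and the number lower 7 to 18 with 1 library left out. Of all genes, 6.07 to 12.4% were then higher and 6.08 to 12.5% lower. Summing the 2 C89 libraries gave 3 and 10 other pathway genes (8.17 and 9.1% of all genes). Scaling by total reads gave 3 higher ones (7.99% of all genes). The log2 fold change of Mtor changed sign: it ran from -0.16 to 0.062 with 1 library left out, at 0.0016 without DMSO library 2 and 0.062 without C89 library 2, and was 0.0042 with C89 libraries 2 and 3 summed. That of Rictor changed sign too: it ran from -0.043 to 0.18 with 1 library left out, at -0.028 without DMSO library 1 and -0.043 without C89 library 1, and was -0.053 with scaling by total reads. The cause was not tested. The 3 log2 ratios kept their sign with each library left out, with both other pseudocounts and with the C89 libraries summed. For Rps6kb2 to Rps6kb1 and Tsc2 to Tsc1 the groups did not overlap, so leaving out or summing libraries could not change the sign. The Rptor to Rictor difference ran from -0.308 to -0.091 with 1 library left out. The block leaves each difference unchanged by construction and so tests no sign. Ratios were not computed with other tools, scalings or filters.

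Deviations of same-numbered libraries from their group means correlated at -0.189, -0.178 and 0.023, and those of other pairs at -0.16 to 0.259. These values gave no sign of pairing by replicate number. They cannot exclude it, because deviations within a group offset each other. With the number as a block, 1 of the 10 genes was higher and 3 were lower, and 4 and 12 of the other pathway genes. Of all genes, 10.3% were then higher and 11.3% lower. Those lost among the other pathway genes were Tbc1d7, Ruvbl2, Pdpk1, Prkab1, Eif4ebp2 and Lpin1. The ratio differences of -1.05, -0.21 and 0.19 are by construction the same with and without pairing. Depth limits low genes most in C89 library 2, where 1 read is worth 2.03 normalized counts.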
